A study of Mus musculus with 6 samples.

Results

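Cholesterol and fatty acid synthesis was followed through 35 genes chosen by name for their place in the pathway, all of which were among the 16854 genes measured. Of these, 7 belong to the mevalonate steps, 11 to the steps from squalene to cholesterol, 6 to control by the sterol regulatory element binding proteins (SREBPs) and 11 to fatty acid and glycerolipid synthesis. All 35 passed the filter on low values (a normalised count of at least 10 in at least 3 libraries), which 16245 genes passed. They were measured by RNA sequencing in C2C12, a mouse myoblast line that fuses into myotubes when serum is reduced. The control group (genotype control, treatment scramble) had 3 libraries of cells with a scrambled short hairpin RNA, and the knockdown group had 3 libraries of cells that stably expressed a short hairpin RNA against Adamtsl2, the gene of a matrix protein secreted by cells. Both groups had been grown to confluence and kept in 2% horse serum for 3 days (differentiation day 3). Whether the knockdown cells were 1 clone or a pool, and whether libraries of a group came from separate cultures, is not given in the sources used here, so p-values measure only the spread between these libraries, which may be technical.

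Cholesterol is built from acetyl-CoA by way of mevalonate, isoprenoid pyrophosphates, squalene and lanosterol, and most genes of this route are transcribed under SREBP2. When membranes of the endoplasmic reticulum are rich in sterol, Insig proteins hold Scap and the SREBPs there. When sterol is scarce, Scap carries the SREBPs to the Golgi, where they are cut and released to the nucleus. SREBP1 drives chiefly the genes of fatty acid synthesis and desaturation, and in muscle the products of both branches go into the membranes of the growing myotube.

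On SREBP target promoters the nuclear protein commonly binds beside the factors NF-Y and Sp1, so the promoters of the members were searched for the elements of these proteins on both strands. RefSeq (GRCm38.p6) gave promoter windows, from 250 bases before to 50 bases after a transcript start, for 28 members with 36 starts. Fdps, Fdft1, Sqle, Stard4, Scd1, Scd2 and Fads1 had no entry. The consensus sterol regulatory element, spelled TCACNCCAC, was found in 1 of the 28 genes, Hmgcs1, against 1.43% of the 10945 tested genes with a window. It lay 137 to 129 bases before the start, and the 59 bases around it (chr13:119690189-119690247, plus strand) are shown with the element in capitals.
Hmgcs1: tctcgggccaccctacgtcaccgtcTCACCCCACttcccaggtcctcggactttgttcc

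The NF-Y box, CCAAT on one strand or ATTGG on the other, was more common. It was present in 22 of the 28 member genes (78.6%), against 42.9% of the tested genes with a window. At least 2 boxes were present in 12 of the 28 (42.9%), against 16.1% of the tested genes. Counted per start, 63.9% of the 36 member windows held a box, against 37.8% of the windows of tested genes and 37.4% of all 32851 windows. By step, the box was found in 9 of 9 squalene and sterol genes, 5 of 6 mevalonate genes, 4 of 5 SREBP control genes and 4 of 8 fatty acid genes. By the direction of the change described below, 17 of 19 members that fell held a box, as did 5 of 8 that did not pass the test and 0 of 1 that rose. The 9 squalene and sterol genes are all among the 19, so direction and step cannot be told apart here. The share with a box among all tested genes that fell was not counted. The Sp1-type GC box, spelled GGGCGG, was in 78.6% of member genes and 66.2% of tested genes, and the E-box CACGTG in 21.4% and 11.5%. Matches of different motifs may overlap at their ends, and a match of letters is not a binding site.

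**Figure D1:**
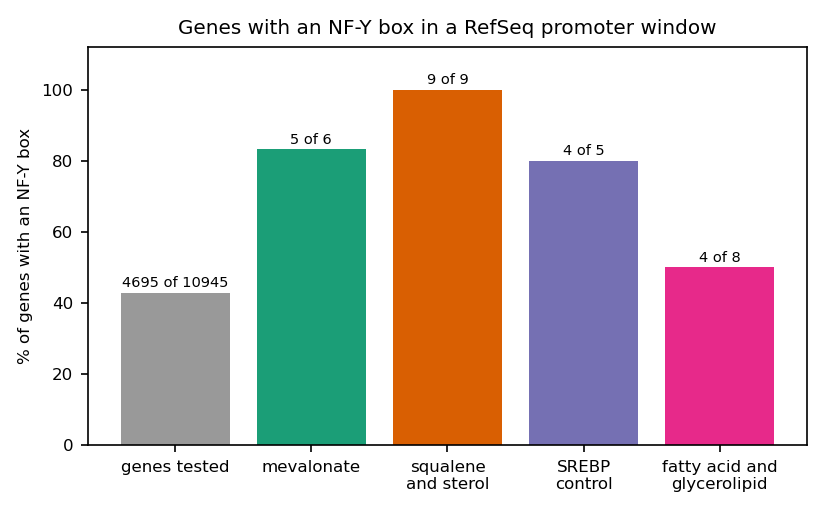
The bars show the percentage of genes with an NF-Y box in at least 1 RefSeq promoter window, for all tested genes with a window and for the members in each step of the pathway, with the number of genes printed above each bar. All 9 squalene and sterol genes with a window held the box, and 4 of 8 fatty acid genes did.

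The 100 bases before the start are printed for 8 members that fell and 3 that did not, to show the box and its strand where there is one. They were chosen after their values were seen, and genes with and without a box are shown on each side. Acat2 fell and has no box in its promoter window, as does Elovl6. Elovl5 did not pass the test and has 2 boxes here, and Insig2 and Srebf1, which did not pass either, also hold boxes in the 100 bases before a start. Capitals mark NF-Y boxes, and each sequence runs 5′ to 3′ on the strand of its gene. The windows are chr8:122443423-122443522 (minus strand) for Mvd, chr13:8885506-8885605 (plus) for Idi1, chr5:4104698-4104797 (minus) for Cyp51, chrX:72918421-72918520 (plus) for Nsdhl, chr8:64733579-64733678 (minus) for Msmo1, chr10:76531505-76531604 (plus) for Lss and chr7:143830114-143830213 (plus) for the most downstream of 3 Dhcr7 starts, the other starts of which had no box. The others are chr17:12960726-12960825 (minus) for Acat2, chr9:77917265-77917364 (plus) for Elovl5, chr12:16610967-16611066 (minus) for Lpin1 and chr9:110333188-110333287 (plus) for the more upstream of 2 Scap starts.
Mvd: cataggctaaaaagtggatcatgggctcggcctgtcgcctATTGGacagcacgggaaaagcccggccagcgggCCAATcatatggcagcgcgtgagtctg
Idi1: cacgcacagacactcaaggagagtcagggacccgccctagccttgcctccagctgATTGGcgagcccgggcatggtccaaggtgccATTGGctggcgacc
Cyp51: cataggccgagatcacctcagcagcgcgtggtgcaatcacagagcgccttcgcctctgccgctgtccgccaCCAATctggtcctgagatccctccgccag
Nsdhl: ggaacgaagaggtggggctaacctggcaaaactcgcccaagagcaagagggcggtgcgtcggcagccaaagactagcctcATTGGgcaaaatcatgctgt
Msmo1: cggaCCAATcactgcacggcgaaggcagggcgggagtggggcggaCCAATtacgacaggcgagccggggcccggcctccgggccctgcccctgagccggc
Lss: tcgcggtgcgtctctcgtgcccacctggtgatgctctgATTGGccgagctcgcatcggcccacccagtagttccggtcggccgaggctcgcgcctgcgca
Dhcr7: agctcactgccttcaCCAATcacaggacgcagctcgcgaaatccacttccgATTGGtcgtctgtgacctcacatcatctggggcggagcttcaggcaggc
Acat2: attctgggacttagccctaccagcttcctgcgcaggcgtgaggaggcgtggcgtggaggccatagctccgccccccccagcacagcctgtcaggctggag
Elovl5: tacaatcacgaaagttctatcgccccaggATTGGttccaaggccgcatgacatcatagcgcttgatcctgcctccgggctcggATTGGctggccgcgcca
Lpin1: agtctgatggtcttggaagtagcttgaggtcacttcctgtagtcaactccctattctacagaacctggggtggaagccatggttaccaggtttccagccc
Scap: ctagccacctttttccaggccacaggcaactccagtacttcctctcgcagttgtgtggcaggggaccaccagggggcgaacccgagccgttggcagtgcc

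Recovered reads totalled 37346439 to 50329438 per library. The targeted gene, Adamtsl2, had normalised counts of 1325, 1266 and 1307 in the control libraries and 23.2, 21.7 and 7.83 in the knockdown libraries, a log2 change of -6.26 (SE 0.41, adjusted p = 0.00011) by limma. Knockdown library 3 stood apart from knockdown libraries 1 and 2. Across genes, its log2 values correlated with theirs at 0.917 and 0.920, and theirs with each other at 0.996. The nuclear RNA Malat1 took 2.83% of its reads against 0.302% to 0.515% in the other libraries, and protein-coding genes 93.7% against 97.7% to 98.1%. Markers of 3 cell types were counted by limma at an adjusted p under 0.05, where 23.5% of all tested genes fell and 21.7% rose. Markers of the myotube were lower in all 12 of 12 genes, with summed normalised counts of 1345588 to 1358344 in control and 8495 to 9768 in knockdown. Of 11 adipocyte markers 4 were measured and 3 rose (Pparg, Cebpa and Plin4), while Lpl did not pass. Their summed counts were 4274 to 4575 in control and 18609.7 to 21951 in knockdown. The other 7, among them Fabp4, Plin1 and Adipoq, had no single entry of their name among the genes measured. Of 8 fibroblast markers 7 were measured, of which 3 rose (Ly6a, Cd34 and Dcn) and 1 fell (Pi16, to 16.1% of the control mean). Pdgfra, Lum and Dpt did not pass. The summed counts were 8779 to 8978 in control and 112713 to 189921 in knockdown. The mean of Dcn alone went from 4764 to 94429, so the sum does not describe the list as a whole. The part of cell state, cell type and library in the results below was not tested beyond the values given. In bulk RNA, fewer cells of a type and less RNA per cell cannot be told apart.

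Most of the synthetic pathway was lower in the Adamtsl2 knockdown. Of the 35 members, 25 fell and 1, Lpin1, rose at an adjusted p under 0.05 (limma on log2(normalised count + 1), two-sided, Benjamini-Hochberg over all 16245 tested genes), where 23.5% of all tested genes fell and 21.7% rose. The median log2 change was -1.20 over the members and -0.0013 over all tested genes. At least 2-fold lower were 18 members, against 16.5% of tested genes. The members took 0.607% to 0.655% of all reads in control, 0.387% and 0.381% in knockdown libraries 1 and 2, and 0.22% in knockdown library 3. All 3 knockdown libraries lay below all 3 control libraries for 29 members and above them for Lpin1, where 32.7% of tested genes were separated downwards and 30.0% upwards. For single genes, 3 against 3 libraries allow no exact permutation p below 0.1.

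By step, all 7 mevalonate genes and all 11 squalene and sterol genes fell, 2 of 6 SREBP control genes fell and none rose, and 5 of 11 fatty acid genes fell and 1 rose. With any 1 control library left out, 4 mevalonate, 10 squalene and sterol, 2 SREBP control and 3 fatty acid genes fell. In those fits 2648 to 2778 of the 16245 tested genes fell, against 3823 with no library left out. Over all 6 libraries, the median log2 changes of these steps were -1.32, -1.63, -0.52 and -0.76 in that order. Without knockdown library 3, 29 members were lower and 6 higher, but 39.9% of all tested genes were then lower and 38.6% higher. The 6 were Srebf1, Scap, Insig2, Elovl5, Fads1 and Lpin1, so that 3 of the SREBP control genes were lower and 3 higher, and 8 of the fatty acid genes lower and 3 higher. With edgeR's quasi-likelihood test on recovered reads, 23 members fell and 1 rose (22.0% and 23.2% of tested genes); Pmvk and Fdps did not pass. In the authors' deposited table, 26 members were lower and 2 higher at an adjusted p under 0.05, against 25.2% and 26.5% of the 16468 genes with an adjusted p there. The additional members in that table were Acly (adjusted p = 0.035) and Fads1 (adjusted p = 0.0382).

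**Figure D2:**
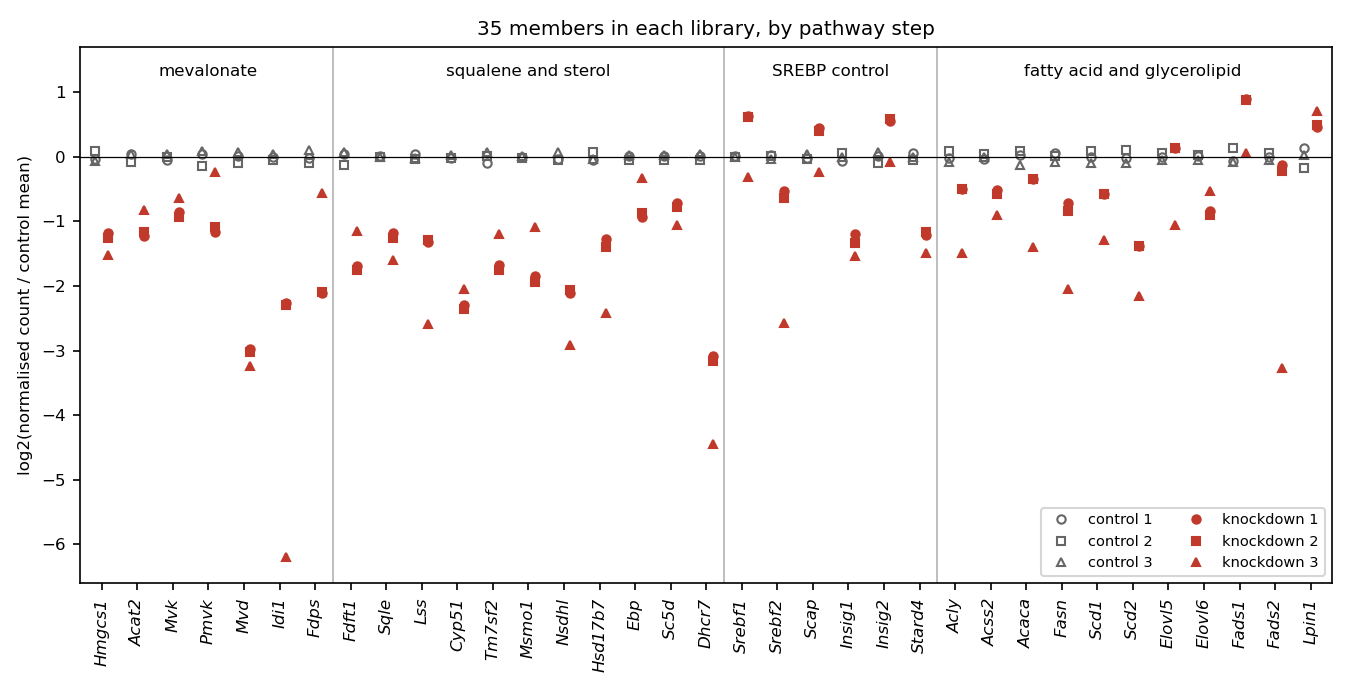
Each of the 35 members is plotted in each library as the log2 ratio of its normalised count to the mean of the 3 control libraries, in pathway order; open grey symbols are control libraries and filled red symbols knockdown libraries. The mevalonate and the squalene and sterol genes lie below 0 in all 3 knockdown libraries, while Srebf1, Scap, Insig2, Fads1 and Elovl5 lie above 0 in knockdown libraries 1 and 2.

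The mevalonate steps turn acetyl-CoA into the isoprenoid units of sterols, ubiquinone, dolichol and prenylated proteins. Their summed normalised count was 28455, 28249 and 29085 in control and 9850.0, 9673 and 12542 in knockdown. Acat2 (ENSMUSG00000023832, chr17:12942890-12960747), the cytosolic thiolase that makes acetoacetyl-CoA, had 3504, 3223 and 3494 in the control libraries and 1456, 1513 and 1931 in the knockdown libraries, a log2 change of -1.07 (SE 0.14, adjusted p = 0.00173). For Hmgcs1 (ENSMUSG00000093930, chr13:119690379-119708260), which adds a further acetyl-CoA to make HMG-CoA and whose promoter element is shown above, the counts were 10196, 11079.6 and 9992 in the control libraries and 4579, 4347 and 3633 in the knockdown libraries. Its log2 change was -1.32 (SE 0.13, adjusted p = 0.00058). For both genes every knockdown library lay below every control library, and knockdown library 3 was the highest of its group for Acat2 and the lowest for Hmgcs1.

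The kinases of mevalonate had smaller log2 changes than the decarboxylase that follows them. Mvk (ENSMUSG00000041939, chr5:114444269-114460591), mevalonate kinase, had 1610.4, 1653 and 1714 in the control libraries and 917, 872 and 1061 in the knockdown libraries, with no overlap between the groups. That was a log2 change of -0.81 (SE 0.12, adjusted p = 0.00274). Pmvk, the kinase of the next step, had 1528, 1344 and 1572 in the control libraries and 659, 700.1 and 1261 in the knockdown libraries and a log2 change of -0.82 (SE 0.27, adjusted p = 0.0484); its knockdown library 3 was close to the control range, and leaving out any control library or knockdown library 1 or 2 ended its call, with adjusted p up to 0.145. Mvd (ENSMUSG00000006517, chr8:122433601-122443422), which decarboxylates mevalonate pyrophosphate to isopentenyl pyrophosphate, had 4013, 3721 and 4150.0 in the control libraries and 505, 487 and 420.3 in the knockdown libraries. Knockdown libraries 1 and 2 averaged 12.5% of the control mean and knockdown library 3 was at 10.6%, and Mvd had the smallest adjusted p of all 35 members, at a log2 change of -3.07 (SE 0.12, adjusted p = 2.12e-05).

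The last enzymes of this stretch differed most among the knockdown libraries. Idi1, the isomerase that makes dimethylallyl pyrophosphate, had 1462, 1427 and 1518 in the control libraries and 305, 301 and 20.1 in the knockdown libraries. Knockdown libraries 1 and 2 averaged 20.6% of the control mean and knockdown library 3 was at 1.37%. Its log2 change was -3.56 (SE 1.05, adjusted p = 0.0351) over all libraries and -2.27 without knockdown library 3, and leaving out any 1 control library ended the call (adjusted p up to 0.103). Fdps, which joins the units into farnesyl pyrophosphate, had 6141, 5800.0 and 6644 in the control libraries and 1429, 1453 and 4216 in the knockdown libraries. Here knockdown library 3 was at 68% of the control mean and the others at 23.3%. The log2 change of Fdps was -1.58 (SE 0.43, adjusted p = 0.027), and the call was lost without any control library or without knockdown library 1 or 2 (adjusted p up to 0.0913). The annotated exons of Fdps share 26.7% of their bases with the model Gm43738 on the same strand, so reads there cannot be assigned to one of them.

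The 11 squalene and sterol genes fell together, from a summed normalised count of 56846, 55355 and 57849 in control to 17816, 17275 and 17218 in knockdown. Of the 4 steps, this one had the lowest median log2 change, and its sum differed least among the knockdown libraries. The committed enzyme Fdft1, squalene synthase, had 7487, 6683 and 7710.0 in the control libraries and 2255, 2171 and 3281 in the knockdown libraries, a log2 change of -1.53 (SE 0.19, adjusted p = 0.00124). Its annotated exons share 774 bases (18.3%) with those of Ctsb on the opposite strand, whose mean was 17651 in control and 49097 in knockdown, and the strand setting of the counting is not given in the sources used here. Sqle (ENSMUSG00000022351, chr15:59315077-59331192), squalene epoxidase and a rate-limiting enzyme of the route, had 10265, 10156 and 10189.7 in the control libraries and 4483, 4278 and 3379 in the knockdown libraries. The control libraries lay close together, every knockdown library was far below them, and the log2 change was -1.34 (SE 0.14, adjusted p = 0.000679). Lss, which closes the ring to lanosterol, went from a mean of 3877 ± 97.9 to 1260.2 ± 532 (SD, n = 3 in each group), a log2 change of -1.73 (adjusted p = 0.00978).

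Cyp51 (ENSMUSG00000001467, chr5:4081145-4104746), the demethylase that acts first on lanosterol, had 11237, 11203 and 11576 in the control libraries and 2321, 2205 and 2738 in the knockdown libraries. It was the most abundant sterol enzyme among the members per length in control, at 2568 ± 46.7 normalised counts per kilobase of exon (SD, n = 3), and its knockdown libraries lay close together. The log2 change was -2.23 (SE 0.13, adjusted p = 6.44e-05). Among the enzymes that then remove the remaining pair of methyl groups, Nsdhl (ENSMUSG00000031349, chrX:72918557-72958514), a decarboxylating dehydrogenase, had 4698, 4637 and 5022 in the control libraries and 1115, 1148 and 636 in the knockdown libraries. That was a log2 change of -2.36 (SE 0.25, adjusted p = 0.000631), with knockdown library 3 the lowest. The oxidase Msmo1 and the ketoreductase Hsd17b7 of the same complex had log2 changes of -1.63 (adjusted p = 0.0025) and -1.69 (adjusted p = 0.00604). Knockdown library 3 was above the other knockdown libraries for Msmo1, at 47% against 26.9% of the control mean, and below them for Hsd17b7, at 18.7% against 39.6%. Tm7sf2, a sterol reductase, had a log2 change of -1.54 (adjusted p = 0.00102), and its exons share 12.1% of their bases with Vps51 on the same strand.

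At the end of the route, Ebp, the sterol isomerase, and Sc5d, the desaturase that follows it, had the smallest changes of the step, with log2 values of -0.71 (adjusted p = 0.0215) and -0.85 (adjusted p = 0.00293). The call of Ebp was lost without any control library or without knockdown library 1 or 2 (adjusted p up to 0.0801). Dhcr7 (ENSMUSG00000058454, chr7:143823145-143848410), the reductase that completes cholesterol, had 6737, 6466 and 6857 in the control libraries and 787, 745 and 306 in the knockdown libraries. Knockdown libraries 1 and 2 averaged 11.5% of the control mean, and knockdown library 3 was at 4.58%. Its log2 change of -3.56 (SE 0.37, adjusted p = 0.000622) was the lowest of the members together with that of Idi1, and unlike that of Idi1 it passed the test whichever library was left out.

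The SREBP control genes did not move as 1 block. Insig1, itself a target of the SREBPs, had 6068, 6594 and 6339.9 in the control libraries and 2778, 2514 and 2192 in the knockdown libraries (ENSMUSG00000045294, chr5:28071363-28078662). The groups did not overlap, and the log2 change was -1.35 (SE 0.13, adjusted p = 0.000438). Insig2 (ENSMUSG00000003721, chr1:121304353-121332589), its relative, had 2796, 2604 and 2907 in the control libraries and 4066, 4139 and 2607 in the knockdown libraries. Knockdown libraries 1 and 2 were above the control range and knockdown library 3 was inside it, and the log2 change was 0.35 (SE 0.20, adjusted p = 0.214), or 0.57 (adjusted p = 5.70e-06) without knockdown library 3. The fit without that library called 39.9% of all tested genes lower and 38.6% higher, so a small adjusted p there does not set a gene apart. Stard4 (ENSMUSG00000024378, chr18:33199355-33213862), a carrier of cholesterol between membranes and a known SREBP2 target, had 1938, 1809 and 1857 in the control libraries and 810.0, 836 and 666 in the knockdown libraries, with every knockdown library below the control range. That was a log2 change of -1.28 (SE 0.13, adjusted p = 0.000583).

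The genes of the transcription factors and their escort depended on knockdown library 3. Srebf2 (ENSMUSG00000022463, chr15:82147181-82205379), which encodes SREBP2, had 22306, 22177 and 21351 in the control libraries and 15174, 14182 and 3673 in the knockdown libraries. All knockdown libraries were below all control libraries, but knockdown libraries 1 and 2 held 66.9% of the control mean and knockdown library 3 16.7%, and the log2 change of -1.25 (SE 0.55, adjusted p = 0.117) did not pass. Without knockdown library 3 it was -0.58 (adjusted p = 2.07e-06). That fit, used here and for Srebf1 and Scap below, called 39.9% of all tested genes lower and 38.6% higher. A small adjusted p in it does not set a gene apart. Srebf1 (ENSMUSG00000020538, chr11:60199089-60222581), which encodes SREBP1, had 5553, 5486 and 5482 in the control libraries and 8511, 8419 and 4428 in the knockdown libraries. Knockdown libraries 1 and 2 were above every control library and knockdown library 3 was below every control library, so that its log2 change of 0.31 (SE 0.27, adjusted p = 0.398) became 0.62 without knockdown library 3 (adjusted p = 3.25e-07). Scap (ENSMUSG00000032485, chr9:110333288-110384950), the escort that senses sterol, had the same arrangement, with 2663, 2627 and 2776 in the control libraries and 3669, 3564 and 2285 in the knockdown libraries. Its log2 change was 0.21 (SE 0.20, adjusted p = 0.449) and, without knockdown library 3, 0.43 (adjusted p = 1.76e-05). Exons of Scap share 13.2% of their bases with the opposite-strand model 5830462I19Rik, whose mean was 14.0 in control and 23.0 in knockdown.

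Fatty acid synthesis starts from acetyl-CoA made by Acly from citrate or by Acss2 from acetate. Acss2 (ENSMUSG00000027605, chr2:155517948-155585724) had 1299, 1370.4 and 1327 in the control libraries and 929, 891 and 713 in the knockdown libraries, with all knockdown libraries below the control range and a log2 change of -0.67 (SE 0.14, adjusted p = 0.0102). The log2 change of Acly was -0.82 (adjusted p = 0.0622), and that of Acaca, which makes malonyl-CoA, was -0.69 (adjusted p = 0.115). Neither passed, although all 3 knockdown libraries lay below the control range for each, and without knockdown library 3 the log2 changes were -0.49 (adjusted p = 1.49e-05) and -0.34 (adjusted p = 0.000568). In that fit 39.9% of all tested genes were lower and 38.6% higher. Fasn, the synthase, had 19568, 18907 and 17750.5 in the control libraries and 11458, 10524 and 4548 in the knockdown libraries and a log2 change of -1.19 (SE 0.36, adjusted p = 0.0392). Knockdown library 3 held 24.3% of the control mean against 58.6% in the others, and the call was lost without any control library or without knockdown library 2 (adjusted p up to 0.117).

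The desaturases that make monounsaturated fatty acids were the most abundant members. Scd2 (ENSMUSG00000025203, chr19:44293674-44306864) had 97498, 106890.0 and 92968 in the control libraries and 38003, 38057 and 22196 in the knockdown libraries, with no overlap between the groups and a log2 change of -1.64 (SE 0.26, adjusted p = 0.0036). In control it stood at 18140.3 ± 1299.6 normalised counts per kilobase of exon (SD, n = 3), the 99.3 percentile of tested genes. Scd1, at 5247 ± 324 per kilobase, had a log2 change of -0.81 (SE 0.23, adjusted p = 0.0307), which did not pass when any control library was left out (adjusted p up to 0.107). Scd1 and Scd2 are close copies, and reads that fit both may have been split or dropped, so the value of each is uncertain. Exons of Hmgcs1, Idi1, Lss, Cyp51, Srebf1, Acss2, Scd2 and Elovl6 also share bases with other annotated genes, at most 12.1% of the member's exonic bases in a pair (Hmgcs1). Elovl6 (ENSMUSG00000041220, chr3:129532355-129638495), which lengthens palmitate, had 1883, 1905 and 1800.4 in the control libraries and 1038, 995 and 1296 in the knockdown libraries. Every knockdown library was below the control range, with a log2 change of -0.76 (SE 0.14, adjusted p = 0.00588). Elovl5 (ENSMUSG00000032349, chr9:77917364-77984519), which lengthens polyunsaturated fatty acids, had 2887, 3026 and 2806 in the control libraries and 3188, 3200.3 and 1394 in the knockdown libraries. Its knockdown libraries 1 and 2 were above the control range and knockdown library 3 below it, and the log2 change of -0.26 (SE 0.34, adjusted p = 0.568) turned to 0.14 without knockdown library 3 (adjusted p = 0.0294). The latter fit called 38.6% of all tested genes higher and 39.9% lower.

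The desaturases of polyunsaturated fatty acids, neighbours on chromosome 19, differed from each other. Fads1 had 4643, 5358 and 4599 in the control libraries and 9034, 8908 and 5086 in the knockdown libraries, with a log2 change of 0.61 (SE 0.25, adjusted p = 0.0938). Knockdown libraries 1 and 2 lay above the control range and knockdown library 3 inside it, and without the latter the log2 change was 0.89 (adjusted p = 7.25e-07). Fads2 had 3770.0, 3957 and 3649 in the control libraries and 3475, 3266 and 391 in the knockdown libraries, with knockdown library 3 at 10.3% of the control mean and the others at 88.9%. Its log2 change was -1.20 (SE 0.85, adjusted p = 0.295), and -0.17 without knockdown library 3 (adjusted p = 0.0144). For Fads1 and Fads2 alike, the fit without that library called 38.6% of all tested genes higher and 39.9% lower. Lpin1 (ENSMUSG00000020593, chr12:16535669-16610966), a phosphatidate phosphatase of triglyceride synthesis that also acts as a transcriptional coregulator, was the least abundant member per length in control, at 103 ± 11 normalised counts per kilobase of exon (SD, n = 3). It had 1086, 877 and 1013 in the control libraries and 1369, 1393 and 1619.8 in the knockdown libraries, every knockdown library above every control library, and a log2 change of 0.56 (SE 0.14, adjusted p = 0.0189). Leaving out control library 2, control library 3 or knockdown library 2 ended that call, with adjusted p up to 0.0739.

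Ratios of related members within a library do not depend on its scaling, and 5 were compared, per kilobase of exon and as a description since the pairs were chosen after their values were seen. Srebf1 to Srebf2 was 0.320 ± 0.0064 in control and 1.00 ± 0.46 in knockdown (mean ± SD, n = 3 in each group), where the knockdown libraries had 0.715, 0.757 and 1.54. Insig1 to Insig2 was 2.58 ± 0.23 and 0.798 ± 0.13, so the more abundant of the pair per length differed between the groups. Scd1 to Scd2 was 0.289 ± 0.0051 and 0.514 ± 0.014. Fads1 to Fads2 was 0.878 ± 0.044 in control, and the knockdown libraries had 1.78, 1.87 and 8.90. For these 4 ratios the groups did not overlap (exact two-sided permutation p = 0.1, the smallest that 3 against 3 libraries allow, 0.125 adjusted over the 5). Elovl5 to Elovl6 was 2.85 ± 0.051 in control and 5.61, 5.88 and 1.96 in the knockdown libraries (exact permutation p = 0.4).

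**Figure D3:**
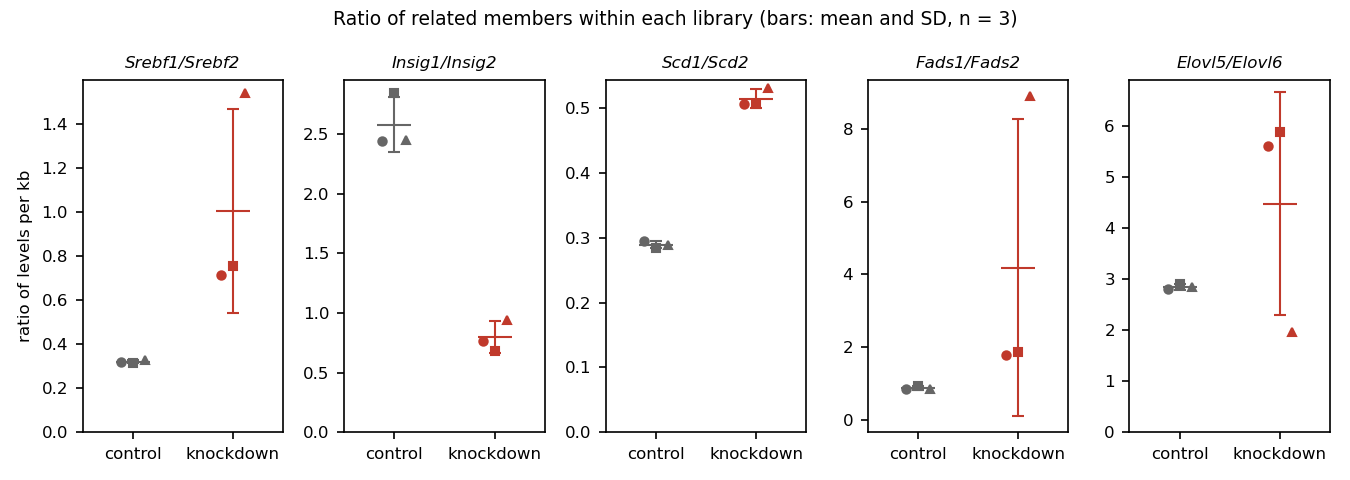
Each panel shows the ratio of 2 related members, in normalised counts per kilobase of exon, in each library (circle, library 1; square, library 2; triangle, library 3), with the mean and SD of 3 libraries per group. The Scd1 to Scd2 ratio is nearly the same in all 3 knockdown libraries, while knockdown library 3 departs from the others for Srebf1 to Srebf2, Fads1 to Fads2 and Elovl5 to Elovl6.

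Within the knockdown group the members did not shift in 1 direction in knockdown library 3. It lay below knockdown libraries 1 and 2 for 24 members and above both for 11, while over all tested genes it lay below for 7968, above for 7463 and between for 814. For the mevalonate genes it was below in 3 and above in 4, and for the squalene and sterol genes below in 6 and above in 5. All 6 SREBP control genes and 9 of 11 fatty acid genes were below. The median member stood at 45.9% of the control mean over knockdown libraries 1 and 2 and at 41.1% in knockdown library 3. Among the control libraries the coefficient of variation of a member was at most 10.7%, with a median of 4.16%. Leaving out knockdown library 3 moved the fold change by more than 1.5 times for Idi1 (2.43 times), Fads2 (2.05 times) and Srebf2 (1.59 times), and by less for the other 32 members.

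**Figure D4:**
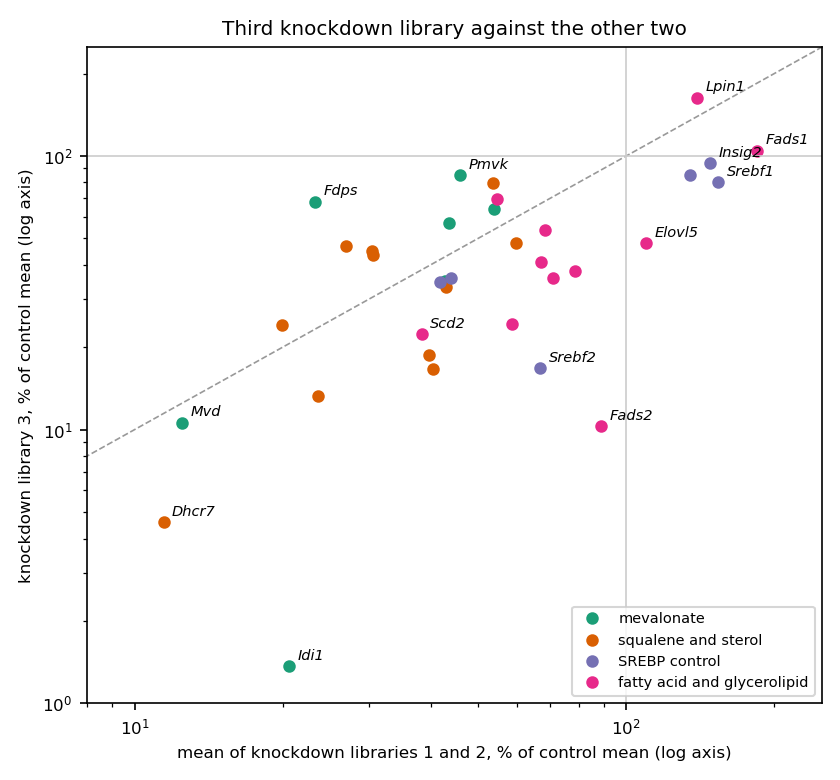
Each point is a member, with its mean in knockdown libraries 1 and 2 on the horizontal axis and its value in knockdown library 3 on the vertical axis, both as a percentage of the control mean on log axes and coloured by pathway step; the dashed line marks equal values and the grey lines 100%. Idi1 and Fads2 lie farthest below the dashed line, at 1.37% and 10.3% in knockdown library 3, and Fdps lies well above it at 68.0%.

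Genes around the pathway that are not members were counted in lists drawn up from their known roles. Of 5 other tested sterol enzymes, 4 fell and none rose, where 23.5% of all tested genes fell and 21.7% rose, and all 5 were lower without knockdown library 3, where 39.9% of all tested genes were. The most abundant by normalised count, Acat1, the mitochondrial thiolase, had 6078, 5838 and 6322 in the control libraries and 2153, 2258 and 2071 in the knockdown libraries and a log2 change of -1.49 (SE 0.10, adjusted p = 0.000134). Of 14 genes that use isoprenoids for ubiquinone, dolichol and protein prenylation, 4 fell and 1 rose, against the 23.5% and 21.7% of all tested genes. Without knockdown library 3, 7 were lower and 6 higher, against 39.9% and 38.6%. Rabggtb, a subunit of the prenyltransferase of Rab proteins, was the most abundant that fell, with a log2 change of -0.73 (adjusted p = 0.00233), and Dhdds, a subunit of the enzyme that makes dolichol precursors, was the one that rose, at 1.05 (adjusted p = 0.00102). Pdss1, which builds the ubiquinone side chain, had -1.47 (adjusted p = 0.000435).

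Among 11 genes that process or degrade SREBP regulators, 1 fell and 4 rose, against 23.5% and 21.7% of all tested genes, and without knockdown library 3, 1 was lower and 7 higher, against 39.9% and 38.6%. Pgrmc1, which binds Insig and Scap, had 2263, 2367 and 2371 in the control libraries and 5229, 5402 and 3752 in the knockdown libraries and a log2 change of 1.02 (SE 0.17, adjusted p = 0.00387), with every knockdown library above the control range. Rnf139, a ubiquitin ligase, was the gene that fell, with a log2 change of -0.50 (adjusted p = 0.00803). Mbtps1, the first of the proteases that cut the SREBPs, had 6493, 6770.1 and 6479 in the control libraries and 11052, 10902 and 4968 in the knockdown libraries and did not pass (adjusted p = 0.415), with knockdown library 3 below the control range and the others above it. Mbtps2, the other protease, rose with a log2 change of 0.56 (adjusted p = 0.0226).

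Of 24 genes of sterol uptake, transport and efflux, 6 fell and 10 rose, where 23.5% of all tested genes fell and 21.7% rose, so the share that fell was close to that of all genes. Without knockdown library 3, 8 were lower and 14 higher, against 39.9% and 38.6%. The receptor of high-density lipoprotein, Scarb1, had 1506, 1418 and 1445 in the control libraries and 367, 354 and 401 in the knockdown libraries, a log2 change of -1.96 (SE 0.12, adjusted p = 7.31e-05). Lrp8, a receptor of the low-density lipoprotein receptor family, had 669, 595 and 553 in the control libraries and 108, 91.2 and 51.4 in the knockdown libraries and a log2 change of -2.91 (adjusted p = 0.000594), while Vldlr of the same family had 56.7, 50.5 and 63.7 in the control libraries and 439, 366 and 255 in the knockdown libraries and a log2 change of 2.58 (adjusted p = 0.00047). The largest fall in the list was that of Gramd1b, a carrier of cholesterol from the plasma membrane, with 2906, 3185 and 2739 in the control libraries and 9.95, 11.7 and 16.8 in the knockdown libraries, a log2 change of -7.76 (adjusted p = 7.23e-06). Abca1, the exporter to apolipoproteins, had 38.1, 37.9 and 28.5 in the control libraries and 976, 989 and 402 in the knockdown libraries, and Abcg1, an exporter to lipoprotein particles, had 4.36, 10.1 and 7.6 in the control libraries and 206, 217 and 164 in the knockdown libraries, log2 changes of 4.36 (adjusted p = 0.000346) and 4.61 (adjusted p = 0.000164). The control values of Abcg1 rest on few reads, as 1 read was worth 1.09, 1.26 and 0.95 units there. Npc2, which carries cholesterol out of lysosomes, was the most abundant that rose and had 9771, 9070.1 and 10189 in the control libraries and 24149, 24611 and 32371 in the knockdown libraries, a log2 change of 1.47 (SE 0.16, adjusted p = 0.000828). For Scarb1, Lrp8, Gramd1b, Abca1, Abcg1 and Npc2 no knockdown library overlapped the control range.

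**Figure D5:**
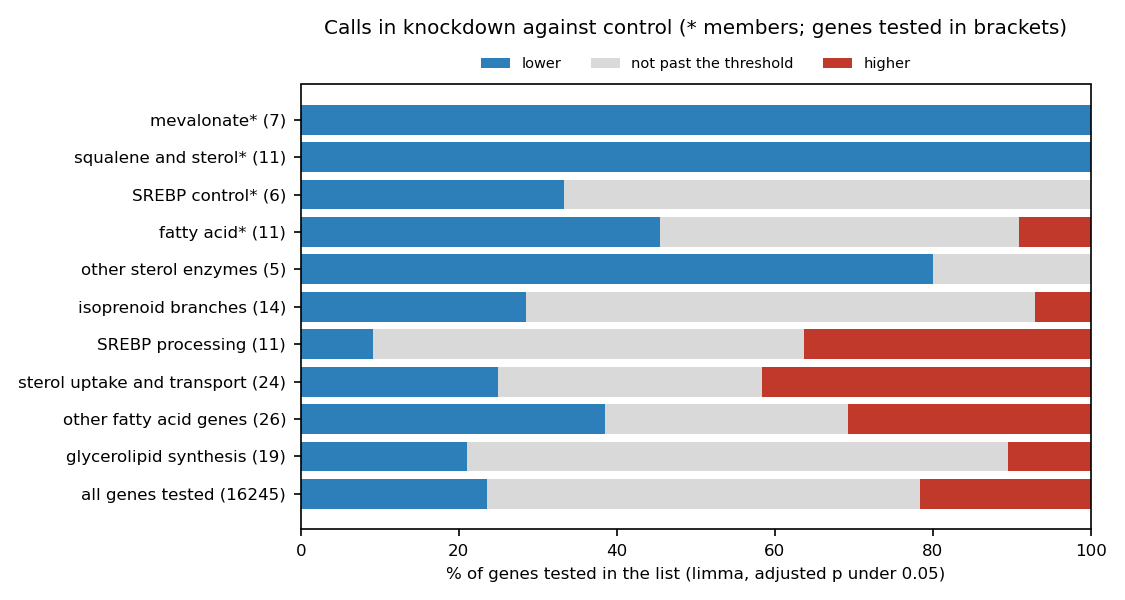
Bars show the percentage of tested genes in each list that fell, rose or did not pass (limma, adjusted p under 0.05), with the members marked by an asterisk, the number of tested genes in brackets and all tested genes at the foot. The mevalonate and the squalene and sterol bars are lower in full, and the bar of all tested genes shows 23.5% lower and 21.7% higher.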

How the data were processed

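Poly(A) RNA of 6 C2C12 libraries (3 control, 3 knockdown; groups and numbers from the sample titles) was sequenced as paired 150 bp reads, per the labels' protocols. The tools named are Trimmomatic 0.36, DESeq2 and featureCounts (Subread 1.5.2), on GRCm38, per the submitters' processing notes. No aligner, annotation release or strand setting is given in the sources used here. The table gave a normalised signal per gene and library, gene counts that the authors divided by size factors, and the authors' log2 fold changes, p-values and adjusted p-values (per the file headers). Within 0.01 reads, 100% of values were a whole number of reads, which were recovered; 1 read was worth 0.829 to 1.26 units, and a count of 0 allows up to 3 reads.

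Values were tested with limma 3.58.1 (R 4.3.3) on log2(value + 1) with a mean-variance trend, two-sided, Benjamini-Hochberg adjusted over 16245 genes; the pseudocount of 1 understates changes of low genes. The fitting code was checked on simulated data. Count models on the recovered reads (DESeq2 1.42.0, edgeR 4.0.16), other scalings, filters and pseudocounts, array weights, an adjusted p under 0.01, a 2-fold minimum, a replicate block and each library left out were alternatives. Positions and exonic lengths came from GENCODE M21 (16812 identifiers found, 42 not). Members and lists were chosen with earlier results of these data known. All 35 members are named; every library's values are given for the 4 with the smallest adjusted p per step, for the one that rose and for those with knockdown library 3 across the control range from the others; Pmvk, Idi1, Fdps, Fdft1, Fasn, Fads1 and Fads2 were added after their values were seen. Of other lists, the most abundant gene past the threshold per direction, up to 3 genes, was named; not every gene given by this rule is printed, and other names were chosen after their values were seen.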

Additional observations from a re-analysis of the deposited data

How the results depend on the processing

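The number of members that fell was 25, and 18 to 29 under the alternatives run: 24 with TMM scaling, 23 with upper-quartile scaling, 28 with array weights, 26 with DESeq2, 18 at an adjusted p under 0.01, and 19 to 29 with 1 library left out. The number that rose was 1, and 2 with upper-quartile scaling, 2 with DESeq2, 6 with array weights (which gave knockdown library 3 a weight of 0.0196), 6 with edgeR without knockdown library 3, 0 at an adjusted p under 0.01, 0 at a minimum of 2-fold and 0 to 6 with 1 library left out. The log2 change of Elovl5, -0.26 over all libraries, ranged from -0.46 to 0.14 with 1 library left out and reversed to 0.14 without knockdown library 3, 0.141 with array weights and 0.156 with edgeR without knockdown library 3. No other member changed sign, and 19 of the 26 called members kept their call in all 6 fits with 1 library left out. Same-numbered libraries had correlated deviations of 0.017, 0.105 and 0.143, so they were not taken as pairs; with the replicate number as a block 25 members fell and 0 rose. Over all genes, 7342 were called (3823 lower, 3519 higher), 12754 without knockdown library 3 (6485, 6269) and 13371 with array weights (6744, 6627). Lower and higher genes were 3750 and 3646 with TMM scaling, 3489 and 4010 with upper-quartile scaling, and 4118 and 4343 with DESeq2. They were 6459 and 6489 with edgeR without knockdown library 3. With 1 library left out, 2648 to 6485 genes were lower and 2443 to 6269 higher. No count over all genes is given at an adjusted p under 0.01. Upper-quartile scaling moved the median of all genes by 0.117 on the log2 scale.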

Other observations

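Of 26 tested genes of fatty acid synthesis, elongation and activation outside the 35 members, 10 fell and 8 rose, where 23.5% of all tested genes fell and 21.7% rose. Without knockdown library 3, 14 were lower and 10 higher, against 39.9% and 38.6%, so the share that was higher was close to that of all genes. Within them, the long-chain acyl-CoA synthetases, which activate fatty acids for use, were chosen for description after their values were seen. Acsl3, the most abundant, had normalised counts of 11949.5, 12355 and 11976 in the control libraries and 4051, 4119.6 and 2535 in the knockdown libraries, a log2 change of -1.79 (adjusted p = 0.00103) by limma. Acsl4, which prefers arachidonate, had 7616, 7318 and 7071 in the control libraries and 1388, 1435 and 1515 in the knockdown libraries and a log2 change of -2.34 (adjusted p = 2.87e-05). Acsl1 had a log2 change of -1.65 (adjusted p = 0.001), and Acsl6 fell from 3098, 3107 and 3195 to 3.32, 0.836 and 25.7. Few reads lie behind the Acsl6 values of knockdown libraries 1 and 2, where 1 read was worth 0.829 and 0.836 units. Knockdown library 3 was the highest of its group. Acsl5 had 1392, 1346 and 1497 in the control libraries and 1969, 1991 and 1335 in the knockdown libraries and did not pass, with a log2 change of 0.30 (adjusted p = 0.238). Hacd1 and Hacd3, dehydratases of the elongation cycle, went opposite ways. Hacd1, known for its expression in muscle, had 8530.4, 7937 and 9135 in the control libraries and 633, 571 and 940.2 in the knockdown libraries, a log2 change of -3.61 (adjusted p = 6.95e-05). Hacd3 had 1342, 1378 and 1468 in the control libraries and 4825, 4788 and 4334 in the knockdown libraries, a log2 change of 1.73 (adjusted p = 9.05e-05).

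In glycerolipid and phospholipid synthesis, 4 of 19 tested genes fell and 2 rose, where 23.5% of all tested genes fell and 21.7% rose. Without knockdown library 3, 12 were lower and 3 higher, against 39.9% and 38.6%. Agpat3, which acylates lysophosphatidate, was the most abundant that fell, with 9468, 9676 and 9399 in the control libraries and 4906, 4825 and 2562 in the knockdown libraries and a log2 change of -1.28 (adjusted p = 0.0106). Pcyt2, of phosphatidylethanolamine synthesis, had 4886, 4694 and 5140.0 in the control libraries and 2562, 2366 and 2513 in the knockdown libraries and a log2 change of -0.98 (adjusted p = 0.000671). Chkb, choline kinase beta, was the most abundant that rose, with 1262, 1324 and 1494 in the control libraries and 2908, 2688 and 5357 in the knockdown libraries and a log2 change of 1.36 (adjusted p = 0.00945), knockdown library 3 being the highest. Of the relatives of Lpin1, Lpin3 had 2994, 2425 and 3068 in the control libraries and 1491, 1437 and 476 in the knockdown libraries and a log2 change of -1.48 (adjusted p = 0.0407), opposite in sign to that of Lpin1 (0.56), and Lpin2 did not pass, at -0.20 (adjusted p = 0.254).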
